A study of Mus musculus with 11 samples.

Results

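Interferon-stimulated genes and immune GTPases were followed through heart RNA of 4 groups of mice. The 42 genes were taken by symbol: 4 sensors of viral nucleic acid, 4 transcription factors, 18 antiviral effectors, 5 enzymes of ubiquitin, ISG15 and ADP-ribose, 8 immune GTPases, and 3 genes of chemokines and peptide transport. Of these, 41 were among the 35584 genes of the normalised count table and all 42 were in the companion TPM table. Reads were present for all 41 in each of the 11 libraries, and 39 had a mean of at least 10 normalised counts and were tested. The others were Oas3 (mean 9.48) and Cxcl10 (mean 9.06), which fell below that minimum, and Mx2, which was in the TPM table alone.

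Interferons are secreted proteins that act through receptors on nearly all cells. Type I interferons (alpha and beta) signal through IFNAR and a complex with STAT2 and IRF9, which binds the interferon-stimulated response element (ISRE). Interferon gamma, made mainly by NK cells and T cells, signals through IFNGR and acts at the gamma-activated site (GAS). Both raise overlapping sets of genes, and the immunity-related GTPases and guanylate-binding proteins, which attack vacuoles that hold intracellular microbes, are known as strong targets of interferon gamma. Resident macrophages of the heart take up dying cells through Mertk, and Mertk and the liver X receptors are both known to restrain inflammatory signalling in macrophages.

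Whole hearts came from male mice aged 8 to 12 weeks and kept free of specific pathogens. WT mice (3 libraries) and CD169-DTR mice, which carry the diphtheria toxin receptor under the CD169 locus (Macrophage-depleted, 3 libraries), were injected with diphtheria toxin at 0.01 µg per g of body weight, 3 times a week for 3 weeks. The CD169-DTR hearts are labelled as depleted of macrophages for 21 days, and depletion cannot be told apart from the CD169-DTR allele, which WT lacks. Mertk-KO (2 libraries) lacks the receptor Mertk, and LXR-DKO (3 libraries) lacks liver X receptors alpha and beta. Whether the knockout mice were given toxin is not in the labels, so genotype and toxin cannot be told apart in their comparisons with WT. The labels name no individual animals, and p-values therefore cover the spread between libraries, which may be partly technical. In whole tissue, fewer cells of a type and less RNA per cell cannot be told apart.

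The libraries held 10938600 to 20722295 estimated reads. The summed level of 7 cardiomyocyte genes was 712406 to 872535 normalised counts in every library, as the heart label says. Nr1h3 and Nr1h2, the genes of the liver X receptors, had 25.9 to 29.0 and 85.2 to 99.6 normalised counts in LXR-DKO, below the 145 and 525 or more of all other libraries. Mertk had 75.7 and 89.4 in Mertk-KO, 75.4 to 125 in Macrophage-depleted, 93.6 to 103 in LXR-DKO and 129.9 to 147 in WT, so it overlapped between Mertk-KO and Macrophage-depleted, and a value over the whole gene does not check that label. Siglec1, which encodes CD169, had 33.8, 2.12 and 0.719 in the Macrophage-depleted libraries and 53.4 to 64.3 in WT. The Mertk-KO pair stood farthest apart of all replicate pairs across genes, with a Pearson r of 0.959 on log values against 0.976 to 0.987 within the other groups.

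One library, Mertk-KO 2, stood apart from the other 10 in these genes, and the counts of called genes are given with and without it. Of the 39 genes tested, 38 had their highest level of all 11 libraries in Mertk-KO 2, which held the highest level for 16.8% of all 13884 genes tested. The exception was Trim25, a ubiquitin ligase that activates the sensor RIG-I. The members together took 0.365% of the reads of Mertk-KO 2 and 0.0431% to 0.0682% of those of the other 10 libraries. The 8 immune GTPases alone took 0.273% in Mertk-KO 2 and at most 0.026% elsewhere.

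The promoter sequences below are shown because the immune GTPases had the greatest excess in Mertk-KO 2, with Irf1, which passed the test, and Isg15, a classical type I target, for comparison. No promoter was given for Iigp1, and those of Gbp2, Gbp3 and Gbp7 are not shown. Each sequence runs from 250 bases before to 50 bases after the RefSeq start site (build GRCm38.p6), 5′ to 3′ on the gene's strand. For Irgm2 alone of those shown, the bases after that site were not found in the gene's annotated transcripts, so its distances are less certain. Capitals mark matches on either strand to the ISRE core or to the GAS motif, which is TTCNNNGAA. The ISRE core is GAAA, any 2 bases and GAAA again.
Igtp (chr11:58199306-58199605, plus strand): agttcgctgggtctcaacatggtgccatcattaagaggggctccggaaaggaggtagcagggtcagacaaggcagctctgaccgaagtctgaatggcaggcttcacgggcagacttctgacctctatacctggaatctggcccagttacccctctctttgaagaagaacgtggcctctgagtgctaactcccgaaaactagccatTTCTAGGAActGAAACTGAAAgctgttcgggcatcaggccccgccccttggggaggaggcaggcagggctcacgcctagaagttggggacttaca
Irgm2 (chr11:58214727-58215026, plus strand): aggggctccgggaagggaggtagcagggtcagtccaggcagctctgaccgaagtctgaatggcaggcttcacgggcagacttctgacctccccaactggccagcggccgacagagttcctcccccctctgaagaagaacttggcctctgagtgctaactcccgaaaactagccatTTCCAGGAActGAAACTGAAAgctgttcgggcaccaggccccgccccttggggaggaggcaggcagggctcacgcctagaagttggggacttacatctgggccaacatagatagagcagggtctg
Tgtp1 (chr11:48992197-48992496, minus strand): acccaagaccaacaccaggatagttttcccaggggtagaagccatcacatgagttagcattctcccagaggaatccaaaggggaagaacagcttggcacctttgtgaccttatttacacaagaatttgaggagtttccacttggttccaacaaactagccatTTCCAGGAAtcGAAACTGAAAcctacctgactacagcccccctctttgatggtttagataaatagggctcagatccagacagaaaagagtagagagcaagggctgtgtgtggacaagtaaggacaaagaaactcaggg
Irgm1 (chr11:48871371-48871670, minus strand): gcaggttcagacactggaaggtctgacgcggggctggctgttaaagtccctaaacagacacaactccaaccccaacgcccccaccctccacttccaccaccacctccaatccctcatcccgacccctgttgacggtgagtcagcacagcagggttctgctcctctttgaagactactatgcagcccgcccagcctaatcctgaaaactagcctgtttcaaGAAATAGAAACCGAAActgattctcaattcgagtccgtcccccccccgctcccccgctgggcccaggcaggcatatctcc
Irf1 (chr11:53769764-53770063, plus strand): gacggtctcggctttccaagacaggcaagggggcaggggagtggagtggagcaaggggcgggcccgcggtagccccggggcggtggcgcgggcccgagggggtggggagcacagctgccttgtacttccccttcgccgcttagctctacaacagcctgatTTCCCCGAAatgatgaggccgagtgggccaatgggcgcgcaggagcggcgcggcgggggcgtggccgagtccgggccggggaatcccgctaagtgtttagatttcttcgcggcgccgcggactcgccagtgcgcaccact
Isg15 (chr4:156200769-156201068, minus strand): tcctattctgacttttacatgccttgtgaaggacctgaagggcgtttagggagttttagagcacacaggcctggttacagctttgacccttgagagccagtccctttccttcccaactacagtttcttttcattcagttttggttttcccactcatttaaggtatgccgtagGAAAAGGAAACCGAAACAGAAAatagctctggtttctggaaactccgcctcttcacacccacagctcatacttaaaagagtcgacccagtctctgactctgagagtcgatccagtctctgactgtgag
The ISRE core begins 34 bases before the start site in Igtp, 64 in Irgm2 and 77 in Tgtp1, and in all 3 a GAS match begins 11 bases farther upstream, so that 2 bases separate both motifs. This joined arrangement (GAS, any 2 bases, ISRE core; 21 bases in all) was searched after the sequences were seen. It was found in 5 of 32851 promoters of the same length (0.0152%), those of Igtp, Irgm2, Tgtp1, Tgtp2 and Gm12185. The first 3 are the promoters it was read from. Igtp and Irgm2 share a long stretch of sequence around it, and Tgtp2 is a near-identical copy of Tgtp1. The matches are therefore not independent, and the share is a description only. Irgm1 holds a pair of ISRE cores that overlap by 4 bases (30 and 24 bases before the start) and no GAS match. Irf1 holds a GAS match alone, 90 bases before the start, and Isg15 3 overlapping ISRE cores that begin 78, 72 and 66 bases before it. Of the 42 genes, 9 lie on chromosome 11, where Irgm1 (GRCm38 48861968 to 48871683) and Tgtp1 (48985327 to 48994172) lie near each other and Igtp (58199556 to 58207591) and Irgm2 (58199618 to 58222782) overlap.

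Promoters were given for 31 of the 42 genes, 35 promoters in all. The ISRE core was in 19 of the 35 (54.3%) and in 3.44% of all promoters. The GAS motif was in 9 of 35 (25.7%) and in 8.30% of all promoters. By role, the ISRE core was in all 7 immune GTPases with a promoter, both sensors, 8 of 13 antiviral effectors, 1 of 4 transcription factors, 1 of 3 genes of chemokines and peptide transport and 0 of 2 enzymes. GAS was in 4 of the 7 immune GTPases, 4 of the 13 antiviral effectors and 1 of the 4 transcription factors, and in none of the other 3 roles. Of the immune GTPase promoters not shown above, those of Gbp2 and Gbp3 held an ISRE core without GAS, and that of Gbp7 held both. A match is a description of letters in this window and shows no binding.

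In WT hearts the members differed widely in level. On the TPM scale, which is per transcript length, Ifi27, a classical type I target, had 36.8, 37.7 and 41.5. Bst2 (tetherin), which holds budding virus at the cell surface, had 26.9, 30.05 and 22.5 TPM. Iigp1, an immunity-related GTPase, had 21.2, 27.5 and 25.2 TPM, and Xaf1, a pro-apoptotic protein, 11.6, 15.7 and 17.5. Bst2 and Iigp1 overlapped, as did Xaf1 and Irf1 (14.4 ± 2.31 TPM, SD, n = 3), so that their order is not set by these libraries. At the low end were Mx1 (0.504 ± 0.11), Cxcl10 (0.484 ± 0.308) and Oas3 (0.164 ± 0.0396), which are a dynamin-like antiviral GTPase, a chemokine for activated T cells and a synthetase of 2-5A. Mx2, a relative of Mx1, had 0.909, 0.789 and 1.42 TPM in WT and its highest level of all libraries, 2.52, in Mertk-KO 2.

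**Figure D1:**
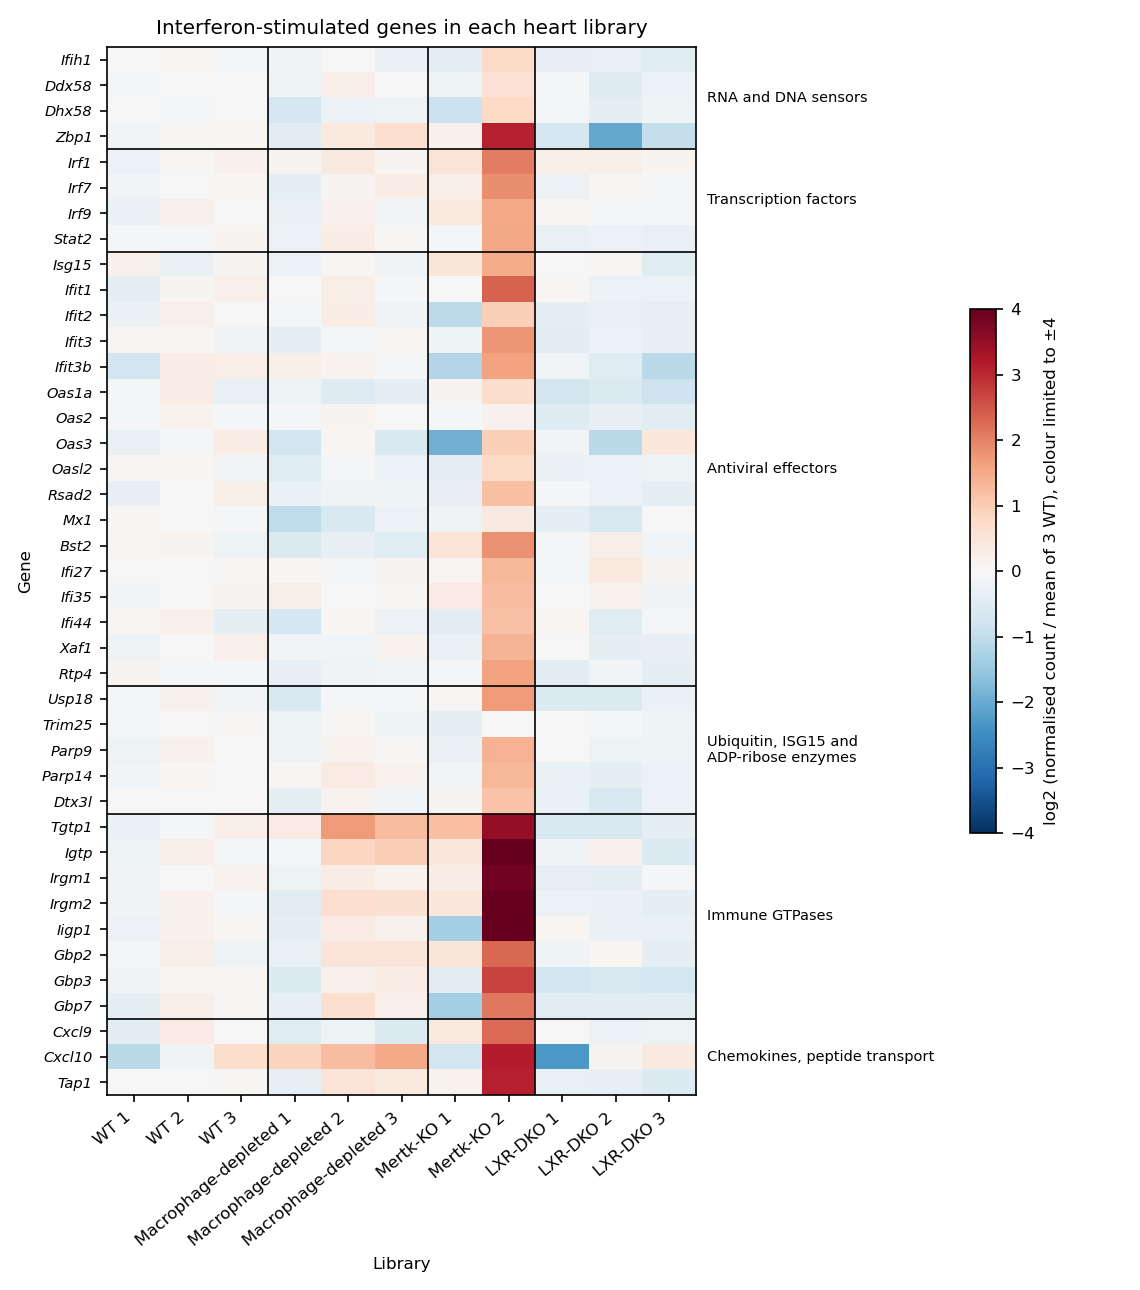
Level of the 41 genes of the count table in each of the 11 libraries, as the log2 ratio of the normalised count to the mean of the 3 WT libraries; rows are grouped by role, and colour is limited to 4 in either direction. The column of Mertk-KO 2 is above WT in all roles, with Igtp, Irgm1, Irgm2 and Iigp1 the darkest, and the LXR-DKO columns are mostly slightly below WT.

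Mertk-KO hearts were first set against WT, to see what loss of Mertk does to the interferon response of the heart. In Mertk-KO 2, 38 of the 39 genes were above every WT library, against 36.5% of all genes tested, and 30 of the 39 were at least 2 times the WT mean, against 2.38% of all genes. In Mertk-KO 1, 16 of the 39 were above every WT library (36.7% of all genes) and 18 were below every WT library (38.5% of all genes), close to the shares over all genes. The median difference from WT over the 39 genes was 1.56 on the log2 scale in Mertk-KO 2 and -0.05 in Mertk-KO 1.

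The immune GTPases showed the gap between the Mertk-KO libraries most plainly. Igtp (Irgm3) had 171, 233 and 184 normalised counts in WT, 264 in Mertk-KO 1 and 12462 in Mertk-KO 2, which is 63.6 times the WT mean. Irgm2 had 331, 408 and 354 in WT, 491 in Mertk-KO 1 and 7521 in Mertk-KO 2. Iigp1 (Irga6) had 753, 981 and 899 in WT, 352 in Mertk-KO 1 and 16197 in Mertk-KO 2, so that one Mertk-KO library was below every other library and the other was above all. By level per length, Igtp ranked between 3976 and 7940 among all genes in the other 10 libraries and 194 in Mertk-KO 2, and Iigp1 ranked 232 there.

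Irgm1, which regulates the other immunity-related GTPases, had 256, 279 and 314 in WT, 350.3 in Mertk-KO 1 and 4117 in Mertk-KO 2. Among the guanylate-binding proteins, Gbp2 was at 4.90 times the WT mean in Mertk-KO 2 and at 1.39 times in Mertk-KO 1. Gbp3 was at 6.56 and 0.75 times the WT mean, and Gbp7 at 4.27 and 0.392 times, so both were high in Mertk-KO 2 and low in Mertk-KO 1. The Igtp and Irgm2 gene models overlap over 7974 bases of chromosome 11 on the same strand, and Tgtp1 has the near-identical copy Tgtp2, so the split of reads within each pair is uncertain. Irgm2 and Igtp were both far above WT in Mertk-KO 2, and Tgtp2 was at 2525 there against 168 to 238 in WT.

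**Figure D2:**
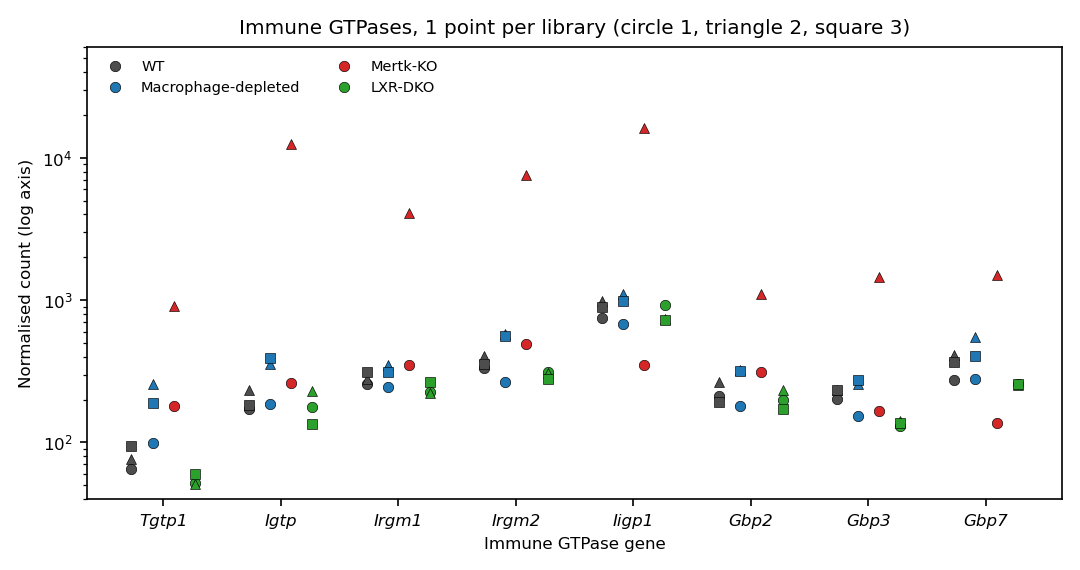
Normalised counts (log axis) of the 8 immune GTPases in each library, coloured by group, with the marker shape giving the replicate number. In all 8 genes the triangle of Mertk-KO 2 lies above every other point, and the circle of Mertk-KO 1 lies within or near the range of the other groups except in Iigp1 and Gbp7, where it is the lowest.

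With both Mertk-KO libraries, 5 of the 39 genes passed the threshold against WT and all 5 were higher, against 3.38% of all genes called higher. In each of the 5, both Mertk-KO libraries were above all 3 WT libraries. The median difference over the 39 was 0.76, and 36 were above 0 against 48.3% of all genes. The groups did not overlap for 16 of the 39, all higher (21.4% of all genes did so in that direction). At an unadjusted p below 0.05, 20 were higher (12.5% of all genes) and 0 lower (16.1%), and without Mertk-KO 2 these counts were 3 higher (12.3%) and 7 lower (19.6%).

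Tgtp1, an immunity-related GTPase first described in T cells, was at 65.3, 76.9 and 94.5 in the WT libraries, at 182 in Mertk-KO 1 and at 911 in Mertk-KO 2. The log2 difference of 2.37 (SE 0.53) passed by limma with an adjusted p of 0.0254. Irf1, the first transcription factor made in response to interferon gamma, had 269, 323 and 356 in WT and 466 and 1309 in Mertk-KO (1.31, SE 0.30, limma adjusted p 0.0281). Bst2 had 199.9, 206 and 164 in WT and 279 and 671 in Mertk-KO (1.19, SE 0.28, limma adjusted p 0.0282).

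Ifi35, an adaptor that binds Nmi, had 161, 176 and 188 in WT and 221 and 413 in Mertk-KO (0.79, SE 0.21, limma adjusted p 0.0403). Irf9, the DNA-binding part of the type I interferon complex, had 225, 314 and 274 in WT and 354 and 777 in Mertk-KO (0.97, SE 0.26, limma adjusted p 0.0416). In all 5, Mertk-KO 1 was nearer to WT than to Mertk-KO 2. Without any 1 of the WT libraries 0 of the 39 passed by limma (0.504% to 1.2% of all genes did). Over 22 alternative libraries and settings, the call was lost in 7 for Tgtp1, 7 for Irf1, 9 for Bst2, 14 for Ifi35 and 13 for Irf9.

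When Mertk-KO 2 was left out, 1 gene was higher (Irf1, 0.57, limma adjusted p 0.0268) and 3 were lower, against 4.34% of all genes higher and 12.9% lower. The 3 lower were Ifit2 (-1.02, adjusted p 0.00326), Iigp1 (-1.31, 0.00206) and Gbp7 (-1.32, 0.00745), all by limma with 1 Mertk-KO library, which is assumed to vary like the other groups. When Mertk-KO 1 was left out, 33 of the 39 were higher and 0 lower, against 4.83% and 5.95% of all genes. The 6 that then missed the threshold were Ddx58 (RIG-I), Dhx58 (LGP2), Oas1a, Oas2, Mx1 and Trim25.

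**Figure D3:**
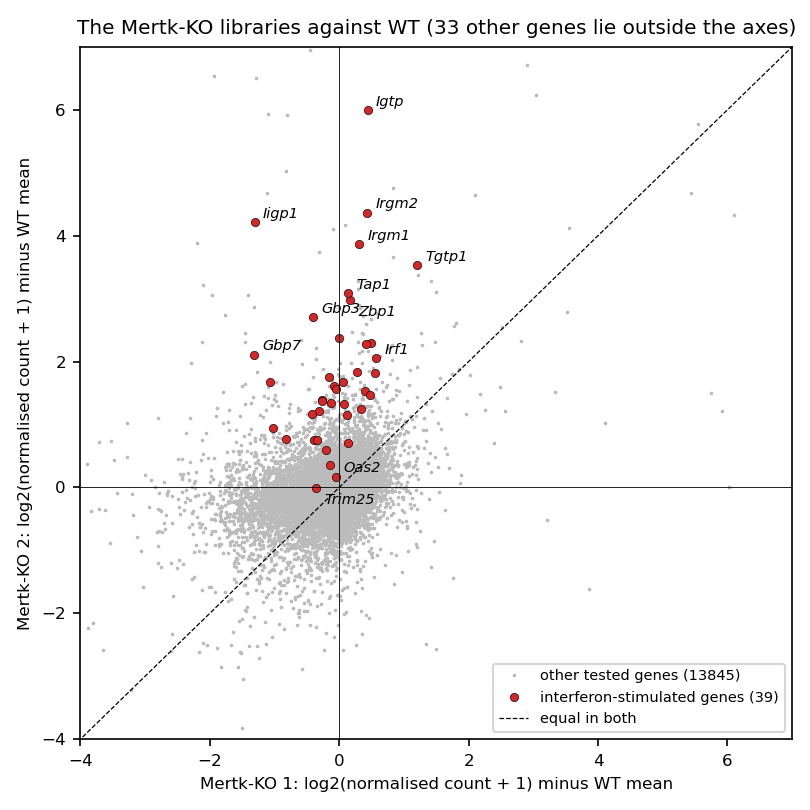
Difference from the WT mean, as log2(normalised count + 1), in Mertk-KO 1 (horizontal) and Mertk-KO 2 (vertical) for the 39 members and the other 13845 genes tested, with the line of equal difference; 33 other genes lie outside the axes. The members form a column around 0 of Mertk-KO 1 that extends to 6 in Mertk-KO 2, led by Igtp, and Trim25 and Oas2 lie near the origin.

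The remaining members of each role are given by their ratio to the WT mean. Among the sensors, Zbp1, which binds Z-form nucleic acid, was at 8.36 times WT in Mertk-KO 2 and 1.13 times in Mertk-KO 1. Ifih1 (MDA5), Ddx58 and Dhx58 were at 1.51 to 1.72 times in Mertk-KO 2 and 0.556 to 0.864 times in Mertk-KO 1. Among the transcription factors, Irf7, the main inducer of interferon alpha genes, was at 3.59 and 1.21 times, and Stat2 at 2.94 and 0.961 times.

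The 18 antiviral effectors, Mx2 left aside, had ratios from 1.12 (Oas2) to 5.16 (Ifit1) in Mertk-KO 2. Ifit1, which binds foreign RNA ends, had 48.6, 68.3 and 73.4 in WT, 62.3 in Mertk-KO 1 and 327 in Mertk-KO 2. The other members of its family, Ifit2, Ifit3 and Ifit3b, were at 1.92, 3.38 and 3.07 times WT in Mertk-KO 2 and at 0.488, 0.895 and 0.444 times in Mertk-KO 1, where reads of the near-identical Ifit3 and Ifit3b may be split. The 2-5A synthetase family, which activates RNase L, had lower ratios: Oas1a, Oas2 and Oasl2 were at 1.63, 1.12 and 1.69 times in Mertk-KO 2. Mx1, a dynamin-like antiviral GTPase, was at 1.29 times WT in Mertk-KO 2 and 0.90 times in Mertk-KO 1, and Oas3, too low to be tested, had 19.7 and 2.66 normalised counts against 8.36, 9.66 and 12.5 in WT. Isg15, a ubiquitin-like protein, was at 2.78 and 1.39 times, and Rsad2 (viperin), which makes a chain-terminating nucleotide, at 2.31 and 0.79 times. Ifi27, Ifi44, Xaf1 and Rtp4 were at 2.24 to 3.06 times in Mertk-KO 2.

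Usp18, which removes ISG15 and dampens IFNAR, was at 3.25 times WT in Mertk-KO 2. Parp9, its partner Dtx3l, and Parp14, enzymes of ADP-ribosylation and ubiquitin, were at 2.61, 2.22 and 2.52 times, and Trim25 was at 0.996 times. The Parp9 and Dtx3l models overlap over 682 bases on opposite strands. Tap1, which moves peptides to MHC class I, had 193, 192 and 203 in WT, 215 in Mertk-KO 1 and 1676 in Mertk-KO 2. Cxcl9, a chemokine induced by interferon gamma, had 67.0, 117 and 93.2 in WT, 121 in Mertk-KO 1 and 443 in Mertk-KO 2. Cxcl10, which was not tested, had 2.13, 4.10 and 7.34 in WT, 2.66 in Mertk-KO 1 and 39.9 in Mertk-KO 2.

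Other genes of the pathway came from 7 lists of 114 genes, of which 88 were tested. Of these, Apol9a and Socs1 reached the minimum mean only through Mertk-KO 2. Apol9a had 130 normalised counts there and 0 to 3.19 in the other libraries, and Socs1 had 31.2 and 3.98 to 14.9. Apol9a is included in the count of higher genes given below without Mertk-KO 1. In Mertk-KO against WT, 14 of the 88 were higher and 2 were lower, beside 3.38% and 5.89% of all genes. The list of MHC class I presentation and chemokines had 12 genes tested, none of them a chemokine, and 7 rose. Among them were H2-K1 and H2-D1, the class I heavy chains, Tap2, the partner of Tap1, and Psme1, the proteasome activator subunit. H2-K1 had 1637, 1669.8 and 1925 in WT and 2593 and 11851 in Mertk-KO (1.67, SE 0.42, limma adjusted p 0.0346), and H2-D1 rose by 1.36 (SE 0.29, limma adjusted p 0.0220). Without Mertk-KO 2 the differences of H2-K1 and H2-D1 were 0.58 and 0.64 (limma adjusted p 0.0122 and 0.00496). Psmb8, Psmb10 and B2m were the remaining 3, and B2m, the class I light chain, had 12358 in Mertk-KO 2 against 2122 to 2415 in WT.

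Of 33 further interferon-stimulated genes 5 rose, namely Ly6e (0.58, limma adjusted p 0.0190), Lgals3bp (0.87, 0.0278), Parp10 (1.16, 0.0340), Ly6a (0.73, 0.0375) and Ifitm3. Of 18 signalling genes, Irf5 (0.92, limma adjusted p 0.0292) and Myd88 (0.47, 0.0466) rose, and the kinases Jak2 (-0.57, 0.0163) and Tbk1 (-0.47, 0.0345) fell. None of the 9 other immune GTPases, 10 brakes of the pathway or 6 receptor genes passed by limma (4, 3 and 2 were higher at an unadjusted p below 0.05 and 0 lower). Gbp6, another guanylate-binding protein named after its values were seen, had 421 to 473 in WT, 421 in Mertk-KO 1 and 7788 in Mertk-KO 2. Leaving out Mertk-KO 1 gave 44 of the 88 higher and 1 lower, beside 4.83% and 5.95% of all genes. Leaving out Mertk-KO 2 gave 7 higher and 11 lower, beside 4.34% and 12.9% of all genes, so the share lower was near that over all genes. Of the 16 called with both libraries, 8 were called the same way without Mertk-KO 2: H2-K1, H2-D1, B2m, Tap2, Psme1 and Ly6e higher, and Jak2 and Tbk1 lower. The 8 that were not were Psmb8, Psmb10, Ifitm3, Ly6a, Lgals3bp, Parp10, Irf5 and Myd88 (limma adjusted p 0.0606 to 0.153).

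The interferon genes themselves were almost without reads. Of 20 ligand genes, 16 had 0 reads in all 11 libraries, which allows up to 3 reads in each library, and Ifnb1 was among them. Ifng had 2 reads in Mertk-KO 2 and 1 in Macrophage-depleted 1. Ifnab had 1 read in WT 2 and 2 in Macrophage-depleted 2, and Ifna2 and Ifna5 had 1 each in Macrophage-depleted 2. The receptor genes differed little: Ifngr1 had 558 to 656 and Ifnar1 331 to 418 normalised counts over all libraries. Ifngr2 was at 2653 and 2840.3 in Mertk-KO and 2362 to 2416 in WT (0.20, SE 0.08, limma adjusted p 0.0996), and Ifnar2 at 381 and 461 against 333 to 369 (0.28, SE 0.11, limma adjusted p 0.134), and without Mertk-KO 2 these differences were 0.15 and 0.14.

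Summed pan-macrophage and NK cell markers were highest in Mertk-KO 2. The 8 pan-macrophage genes summed to 4969 there, 3510 in Mertk-KO 1, 2749.9 to 3269.6 in WT, 1075 to 2091 in Macrophage-depleted and 2244 to 2933 in LXR-DKO. Lyz2 made up 2594 of the sum in Mertk-KO 2. All of these genes were highest in that library except Cx3cr1 (130), which was exceeded in WT 2 (134) and LXR-DKO 1 (134). The 5 NK cell genes summed to 63.4 in Mertk-KO 2, 18.6 in Mertk-KO 1 and 9.76 to 24.1 in the other libraries. Gzma made up 33.4 of the sum in Mertk-KO 2. Nkg7 (12.9), Ncr1 (8.62) and Eomes (4.31, near the 3.23 that 0 reads allow there) were also highest in that library. Klrb1c (4.18) was exceeded in WT 2 (5.12). The 6 T cell genes summed to 53.9 in Mertk-KO 2, 33.0 in Mertk-KO 1 and 24.1 to 46.5 elsewhere. Of that sum in Mertk-KO 2, Cd4 and Cd8a made up 17.2 each. Cd8a and Cd3g (5.39) were highest in that library, while Cd4 was exceeded in Macrophage-depleted 1 (23.9). Cd3e (3.23), Cd3d (2.16) and Trac (8.62) were also each exceeded in another library. The 6 resident macrophage genes summed to 1065 in Mertk-KO 2, below the 1088 to 1155 of WT, but they differed in direction. Cd163 (153) and Mrc1 (388) were below every WT library there. Timd4 (64.7), Folr2 (180) and Siglec1 (66.8) were above every WT library, and Lyve1 (212) lay within the WT range. No marker of these lists was at 0 in all libraries of a group. The 4 atrial genes (Myl7, Sln, Nppa and Myl4) summed to 1675 in Mertk-KO 2, 2995 in Mertk-KO 1, 3433 to 25595 in WT, 3155 to 6194 in Macrophage-depleted and 1611 to 17491 in LXR-DKO, so the libraries differed widely in atrial transcripts. The part of these markers in the result was not tested.

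**Figure D4:**
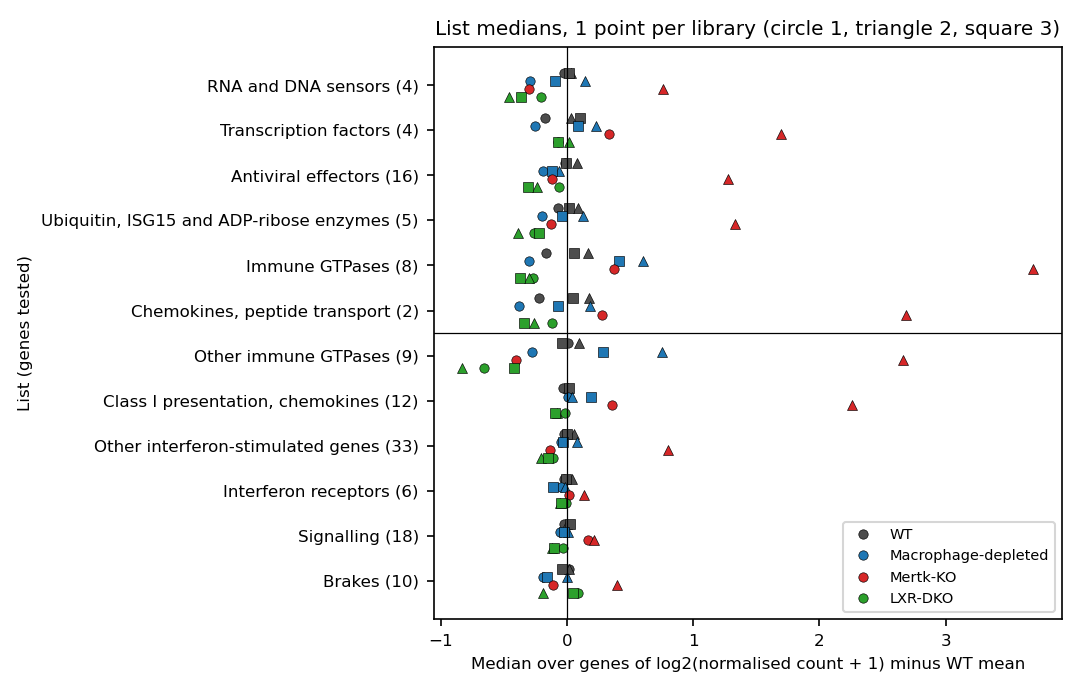
Median over the genes of each list of the difference from the WT mean, as log2(normalised count + 1), 1 point for each library, with the member roles above the line and other pathway lists below it. Mertk-KO 2 is far to the right for the immune GTPases (3.70), chemokines and peptide transport, other GTPases and class I presentation, and close to WT for the receptors (0.14) and signalling genes (0.21).

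Macrophage-depleted hearts were then compared with WT, to see whether loss of CD169-expressing macrophages moves these genes. By limma 0 of the 39 genes passed the threshold, and 0.238% of all genes did. At an unadjusted p below 0.05, 1 was higher and 0 lower, against 3.23% and 4.31% of all genes, and the median difference was 0.01. The libraries of the groups did not overlap for 5 genes: Tgtp1 was above WT (8.51% of all genes were), and Dhx58, Mx1, Bst2 and Rtp4 were below (8.15% of all genes).

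Tgtp1 had 98.9, 258 and 189 normalised counts after depletion and 65.3, 76.9 and 94.5 in WT (1.11, SE 0.47, limma adjusted p 0.616). Mx1 had 10.1, 13.3 and 17.6 against 21.0, 20.7 and 19.9 (-0.58, SE 0.30, limma adjusted p 0.732). Bst2 had 127, 151 and 135 against 199.9, 206 and 164 (-0.46, SE 0.25, limma adjusted p 0.767). Oas1a had 39.0, 31.1 and 34.1 against 43.5, 54.2 and 35.9 and overlapped (-0.34, SE 0.22, limma adjusted p 0.859). None of these differences passed the test. The spread it uses includes that of the Mertk-KO pair, and without Mertk-KO 2 the count of calls was again 0 (0.266% of all genes were called higher and 0.331% lower).

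The Macrophage-depleted libraries differed among themselves. Macrophage-depleted 1 was below every WT library in 23 of the 39 genes (30.7% of all genes were), and Macrophage-depleted 2 was above every WT library in 19 (31.2% of all genes). The immune GTPase median was -0.30 in Macrophage-depleted 1 and 0.60 and 0.41 in the other 2. Igtp, for one, had 188, 357 and 389.5 against 171, 233 and 184 in WT, and Irgm2 had 264, 576 and 558 against 331, 408 and 354. Macrophage-depleted 1 is also the library that kept the most Siglec1 of the 3, and it had the fewest reads of all 11, 10938600; their part in the difference was not tested. Cxcl10 had 8.45, 10.6 and 12.95 after depletion and 2.13, 4.10 and 7.34 in WT, with means too low for the test. The 4 monocyte genes summed to 216 to 281 after depletion and 103 to 144 in WT. Most of the sum after depletion was Ccr2 (112 to 180 against 54.9 to 74.1 in WT). Ly6c2 (63.6 to 88.6 against 35.2 to 65.5) and Plac8 (4.24 to 22.3 against 1.06 to 5.24) overlapped, and Chil3 was at most 5.04 after depletion. The part of these genes in the result was not tested. None of the 88 other pathway genes passed by limma, with 3 higher and 0 lower at an unadjusted p below 0.05 (3.23% and 4.31% of all genes).

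LXR-DKO hearts were compared with WT to see what follows from loss of both liver X receptors. By limma 0 of the 39 genes passed the threshold, and 0.418% of all genes did. The values lay slightly lower: 35 of the 39 differences were below 0, with 50.2% of all genes above 0, and the median was -0.25. For 19 of the 39 genes every LXR-DKO library was below every WT library, against 10.7% of all genes, and for 0 was every library above (12.0%). By role these were all 4 sensors, 1 of 4 transcription factors, 6 of 16 antiviral effectors, 3 of 5 enzymes, 4 of 8 immune GTPases and Tap1. At an unadjusted p below 0.05, 2 were lower and 0 higher (5.15% and 6.38% of all genes).

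Oas2 had 98.2, 111 and 103 normalised counts in LXR-DKO and 133, 153 and 134 in WT (-0.42, SE 0.12, limma adjusted p 0.241). Oas1a had 26.7, 29.95 and 25.0 against 43.5, 54.2 and 35.9 (-0.67, SE 0.22, limma adjusted p 0.312). Zbp1 had 9.26, 3.62 and 7.81 against 13.8, 15.4 and 15.7 (-1.09, SE 0.60, limma adjusted p 0.508). Dtx3l had 267, 208 and 270.2 against 313, 321 and 322 (-0.37, SE 0.22, limma adjusted p 0.543). In each of these 4 genes the groups did not overlap, and the differences did not pass the test. Oas2 passed only when each library was weighted by its own spread (limma adjusted p 0.0236), and over its 22 alternatives this p ran from 0.0236 to 0.65.

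The shared estimate of the spread includes the Mertk-KO pair, which is wide for these genes. Without Mertk-KO 2, 10 of the 39 were lower in LXR-DKO at an unadjusted p below 0.05 (8.43% of all genes), and 0 of the 39 passed the adjusted threshold (0.382% of all genes higher and 0.454% lower). Gbp3 had 131, 142 and 137 in LXR-DKO and 203, 234 and 234 in WT, and its SE was 0.55 with both Mertk-KO libraries and 0.18 without Mertk-KO 2. The 6 resident macrophage genes summed to 676 to 900 in LXR-DKO against 1088 to 1155 in WT, and the 8 pan-macrophage genes to 2244 to 2933 against 2749.9 to 3269.6; their part in the lower values was not tested. None of the 88 other pathway genes passed by limma, with 1 higher and 6 lower at an unadjusted p below 0.05, beside 6.38% and 5.15% of all genes. The 9 other GTPases had a median of -0.62, with 5 of the 9 entirely below WT (10.7% of all genes were), and over the 88 genes 24 were.

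**Figure D5:**
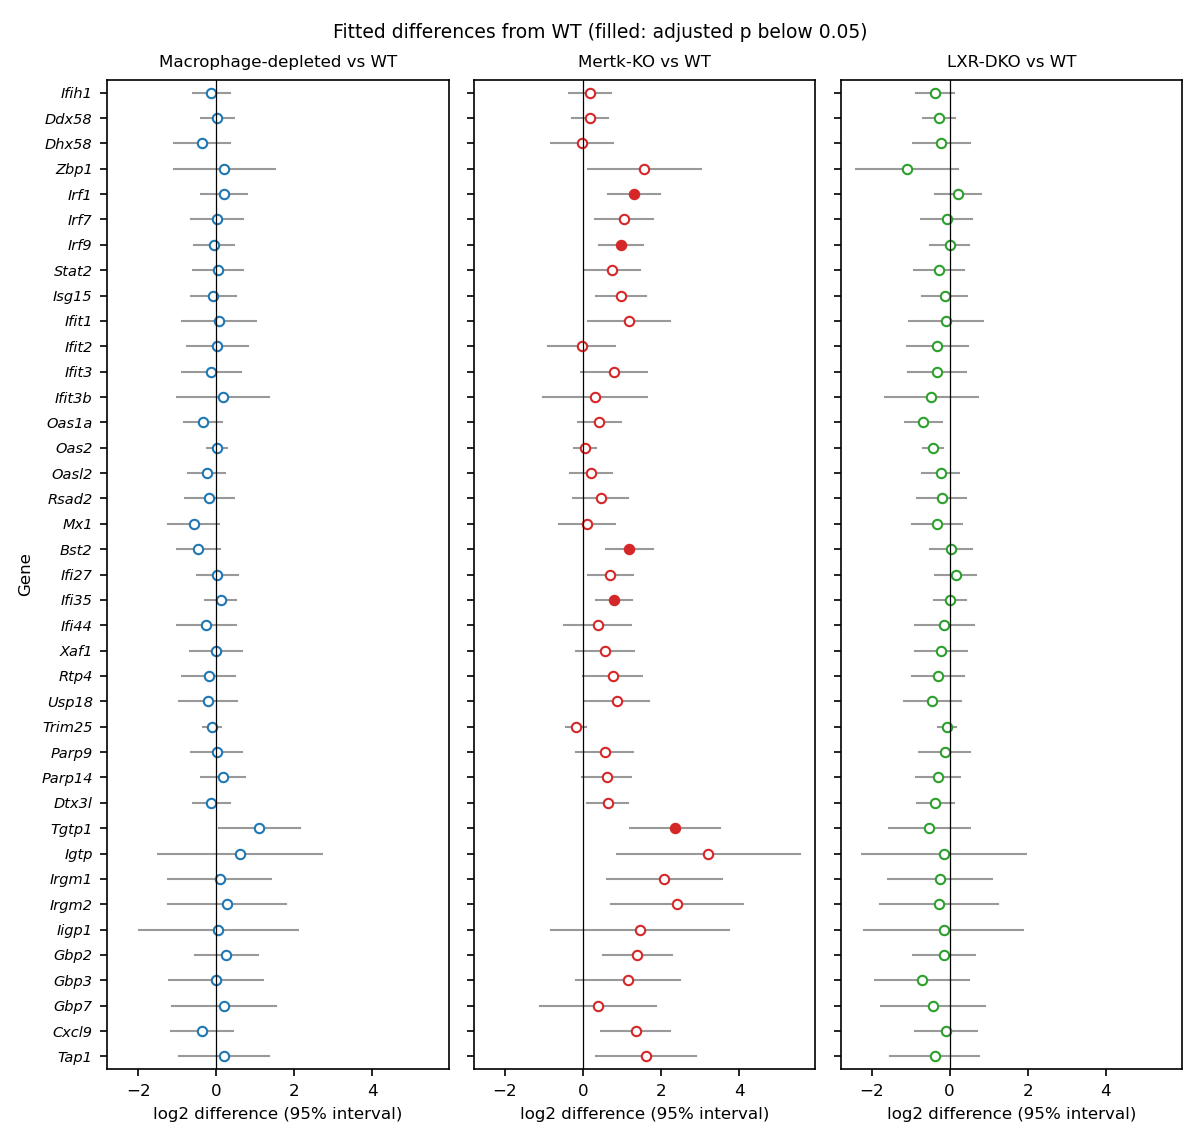
Fitted log2 differences from WT of the 39 genes with 95% intervals in the 3 perturbed groups; filled points have an adjusted p below 0.05. The 5 filled points are all in Mertk-KO, Igtp and Iigp1 have the widest intervals in all 3 panels, and most LXR-DKO points lie slightly left of 0.

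The perturbed groups were also set against each other, and these comparisons share libraries with those above. Against Mertk-KO, 9 of the 39 genes were lower in Macrophage-depleted hearts and 0 higher, beside 9.39% and 11.6% of all genes. The 4 with the smallest p were Bst2 (-1.65, SE 0.28, limma adjusted p 0.00426), Cxcl9 (-1.73, SE 0.41, 0.0148), Irf9 (-1.03, SE 0.26, 0.0193) and Irf1 (-1.11, SE 0.30, 0.0261). Over 22 alternatives the call was lost in 1 for Bst2, 4 for Cxcl9, 4 for Irf9 and 9 for Irf1. Without Mertk-KO 2, Bst2 was the 1 gene called lower (-1.02, limma adjusted p 0.00198), while Ifit2, Iigp1 and Gbp7 were called higher (7.99% and 15.3% of all genes were). Without Mertk-KO 1, 35 were lower (9.77% of all genes).

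Against LXR-DKO, 3 of the 39 were higher in Mertk-KO and 0 lower, beside 0.684% and 1.77% of all genes. They were Tgtp1 (2.89, SE 0.53, limma adjusted p 0.0212), Oas1a (1.09, SE 0.25, 0.0447) and Bst2 (1.16, SE 0.28, 0.0498). These calls were not steady: they were lost in 6 of 22 alternatives for Tgtp1, 16 of 21 for Oas1a and 18 of 22 for Bst2. For Oas1a, Mertk-KO had 48.3 and 72.4 and LXR-DKO 26.7, 29.95 and 25.0. Without Mertk-KO 2, Tgtp1 was the 1 gene called higher (1.73, limma adjusted p 0.00987), and Ifit2 and Iigp1 were lower (3.73% and 11.9% of all genes were). Without Mertk-KO 1, 35 of the 39 were higher (1.94% of all genes).

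Between Macrophage-depleted and LXR-DKO, 0 of the 39 passed by limma and 3.24% of all genes did. The groups did not overlap for 11 genes higher after depletion (13.7% of all genes) and 1 lower (14.6%). At an unadjusted p below 0.05, 2 were higher (9.35% of all genes) and 0 lower (11.2%). Without Mertk-KO 2, and so without the spread of that pair, 5 passed: Tgtp1 (1.62, limma adjusted p 0.00548), Parp14 (0.46, 0.0122), Gbp3 (0.70, 0.0348) and Oas2 (0.44, 0.0356) were higher after depletion and Bst2 (-0.48, 0.0411) was lower, beside 4.52% and 4.34% of all genes. Tgtp1 had 98.9, 258 and 189 against 51.9, 51.2 and 60.0 in LXR-DKO, with no overlap.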

How the data were processed

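PolyA RNA of whole hearts was amplified with a single-cell kit and sequenced, per the labels' protocols. CASAVA 1.8.2, RSEM 1.2.20, kallisto 0.43.1, cutadapt and GRCm38 are named without roles in the submitters' processing notes, with scaling, annotation release and strand use not given in the sources used here. A signal was deposited by the authors for each gene in 2 tables, 1 of normalised counts (with 0.5 read added per gene, as read from the values) and 1 of normalised TPM. Estimated reads were recovered, of which 58.9% to 62.3% of low values were whole within 0.01 read, so no count model was used; they were divided by effective library size and scaled to its mean (normalised count). A library with 0 reads can hold up to 3, or 2.12 to 4.22 normalised counts, counting error only.

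Genes with a mean of at least 10 were tested by limma 3.58.1 in R 4.3.3 (trend) on log2(normalised count + 1), which understates changes of low genes, with 1 model of 4 groups, 7 residual degrees of freedom, two-sided, Benjamini-Hochberg over 13884 genes, threshold 0.05; the fit was tested on simulated data. Single-library differences and medians use the same log scale; ratios use normalised counts. No replicate pair agreed within sampling noise. Identifiers were matched to GENCODE M21 symbols and promoters to RefSeq. In each comparison with WT, up to 8 higher and 8 lower members past the threshold were named, or the 4 with the smallest p where fewer than 4 passed; between perturbed groups, up to 4 each way; of other pathway genes, up to 4 per list. The members and lists were chosen with earlier results of these data known.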

Additional observations from a re-analysis of the deposited data

How the results depend on the processing

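The calls of Mertk-KO against WT depend on the libraries and the fit. Leaving out 1 library at a time gave 0 to 33 members, a member median of -0.054 to 1.56 and 0 to 45 other pathway genes; Macrophage-depleted against Mertk-KO gave 2 to 35 members and medians of -1.54 to 0.062, and Mertk-KO against LXR-DKO 0 to 35 and 0.22 to 1.797. The same gave 0 to 5 members for Macrophage-depleted against LXR-DKO, 0 to 2 other pathway genes for LXR-DKO against WT and 0 to 1 for Macrophage-depleted against WT. With no filter on low values, Mertk-KO against WT had 1 member and 5 other genes, Macrophage-depleted against Mertk-KO 3 members and Mertk-KO against LXR-DKO 1. The TPM table gave 0 members and 6 other genes, 3 and 0. A fit of only the 2 groups compared gave 0 and 0 for Mertk-KO against WT, 1 and 4 for LXR-DKO against WT, 0 for Macrophage-depleted against Mertk-KO, 2 against LXR-DKO and 0 for Mertk-KO against LXR-DKO. Weights per library gave 0 and 0, 1 and 1, 1, 2 and 0 in the same order, and 1 other gene for Macrophage-depleted against WT, as did removal of a length and GC trend. Voom weights gave 0 members for Mertk-KO against LXR-DKO. Pseudocounts of 0.5 and 5, a filter at 50 and median-of-ratios scaling left all counts within 1.5 times. Same-numbered libraries did not deviate together (2 of 15 pairs had a correlation over 0.1, range -0.094 to 0.107), so the numbers pair nothing; with the replicate block, 7 other genes passed in Mertk-KO against WT, and 1 member in Macrophage-depleted and 1 in Mertk-KO against LXR-DKO. Without Mertk-KO 2 the member medians of Mertk-KO against WT (-0.054) and of Macrophage-depleted against Mertk-KO (0.062) changed sign. The cause of these changes was not tested. The SE of the immune GTPases in LXR-DKO against WT was 0.367 to 0.961 with both Mertk-KO libraries and 0.132 to 0.274 without Mertk-KO 2.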
